A study of Arabidopsis thaliana with 6 samples.

Results

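The genes described here encode the RNA polymerase IV (Pol IV) branch of RNA-directed DNA methylation (RdDM) in Arabidopsis thaliana. They were picked by locus for their place in the pathway, by a rule that uses no measured value though earlier results of these data were known, and comprise 10 of the 31335 gene entries counted: NRPD1, NRPD2, SHH1, CLSY1, CLSY2, CLSY3, CLSY4, RDR2, DCL3 and HEN1. Messenger RNA was profiled in leaves of ddcc plants, which carry drm1, drm2, cmt2 and cmt3 mutations, and of wild-type (WT) plants, with 3 libraries per genotype. Both genotypes were of the Col-0 background, 28 days old, and grown by 1 protocol on soil under long days of 16 h of light with no treatment. The labels do not give the mutant alleles, the number of plants per library or the hour of harvest, so p-values measure the spread between these libraries, which may be technical.

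Pol IV is a plant-specific relative of RNA polymerase II that transcribes transposons and repeats into short precursors. RDR2 copies these into double strands, DCL3 cuts them into small interfering RNAs, and HEN1 methylates the ends of the small RNAs, which then guide a second plant-specific polymerase, Pol V, and the methyltransferase DRM2 to matching DNA. SHH1 reads a repressive histone methylation mark and the CLASSY (CLSY) proteins are SNF2-like chromatin factors, and both bring Pol IV to its sites. In ddcc the gene of DRM2, which acts at the end of this pathway, is mutated together with its relative DRM1 and with the chromomethylases CMT2 and CMT3, which methylate outside CG sites by another route. The comparison asks whether transcripts of the upstream branch differ in these mutants.

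Of the 8 genes with enough counts to be tested, NRPD1 alone passed the test between genotypes, being higher in ddcc. Of all tested features, 15.5% were called higher in ddcc and 12.7% lower. Because NRPD1 was the called member, the 250 bases before its annotated start are printed first. They lie at chr1:23362590-23362839 (RefSeq TAIR10.1, minus strand, given in the direction of the gene), and no other annotated gene overlaps them. Capitals mark the trinucleotides CAG, CTG, CCG and CGG, in which a cytosine of either strand lies in a CHG context, the kind methylated by CMT3.
NRPD1 upstream: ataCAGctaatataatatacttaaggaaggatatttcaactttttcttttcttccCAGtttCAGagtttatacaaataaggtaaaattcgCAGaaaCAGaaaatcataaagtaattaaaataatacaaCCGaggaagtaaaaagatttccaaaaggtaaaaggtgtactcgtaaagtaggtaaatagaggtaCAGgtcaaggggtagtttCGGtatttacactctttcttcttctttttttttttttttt
The window held 8 of these trinucleotides, against a median of 5 in 27443 windows of the same length before nuclear protein-coding genes. Of those windows 97.7% held at least 1 and 77% held fewer than NRPD1. Counted on both strands, CHG cytosines ranged from 0 before NRPD2 and 2 before HEN1 to 19 before CLSY2, with a median of 8 over 27437 genes. NRPD1, SHH1 and DCL3 had 14 each, RDR2 had 15, CLSY3 18, CLSY1 9 and CLSY4 7. The count before NRPD1 was thus matched or exceeded before members that were not called. The members therefore share no common CHG density at their starts. In the other contexts the NRPD1 window held fewer cytosines than the median gene. It had 8 against 10 at CG and 50 against 59 at CHH, the remaining context. DNA methylation was not analysed here, so these letters describe the sequence only.

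NRPD2 has a close copy, NRPD2B, elsewhere on chromosome 3, and a stretch of the pair is printed next. It is the first stretch of 150 bases that both coding sequences share without a gap, bases 364 to 513 counted from the start codon of NRPD2, with the 14 differing bases in capitals.
NRPD2: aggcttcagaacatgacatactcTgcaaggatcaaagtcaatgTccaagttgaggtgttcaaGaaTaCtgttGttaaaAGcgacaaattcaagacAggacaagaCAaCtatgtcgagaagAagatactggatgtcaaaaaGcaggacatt
NRPD2B: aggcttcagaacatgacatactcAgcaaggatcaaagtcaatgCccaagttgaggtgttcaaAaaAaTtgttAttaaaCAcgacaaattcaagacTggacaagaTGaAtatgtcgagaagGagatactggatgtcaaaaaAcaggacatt
Over 3165 aligned bases the coding sequences were 95.6% identical, so the printed stretch differs more than the pair as a whole. Of the 50-base words in the exons of NRPD2, 8.39% also occurred in NRPD2B. For the other 9 genes 0 of the 50-base words in their exons occurred elsewhere in the genome. This includes CLSY1 and CLSY2, whose coding sequences were 78.9% identical, while the other CLSY pairs were 52.3% to 59.1% identical. Exons on the opposite strand overlapped 23 bases of SHH1 and 43 bases of DCL3 (1.9% and 0.852% of their exon length), and the other 8 genes had no such overlap.

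Total counts ran from 17265251 to 18809306 in ddcc libraries and from 15188586 to 17644256 in WT libraries, and 3 counts equalled 0.156 to 0.197 CPM, the count scaled to library size. Replicates differed by more than counting noise, with a chi-square over degrees of freedom of 5.33 to 7.65 between ddcc pairs and 3.32 to 4.25 between WT pairs, so no library was counted as a repeat of another. Of the mutated genes, DRM2 averaged 8.14 CPM in ddcc and 17.98 CPM in WT, CMT3 2.98 CPM in ddcc and 9.63 CPM in WT, and CMT2 11.1 CPM in ddcc and 15.3 CPM in WT, all called lower, while DRM1 had at most 1 count in any library and checks nothing. Leaf transcripts were abundant as labelled: RBCS1A, LHCB1.3, RCA and LHCA1 summed to 57250 to 59610 CPM in ddcc and 61620 to 66030 CPM in WT. Of these 4 genes 3 were called lower, beside 12.7% of all tested features. The call of RBCS1A was lost in 5 of 18 alternative settings: without ddcc replicate 1 or 3 or WT replicate 2 (edgeR adjusted p 0.0947, 0.0957 and 0.112), with library totals (edgeR adjusted p 0.0516) and at a threshold of 0.01 (edgeR adjusted p 0.0342). That of RCA was lost without ddcc replicate 3 (edgeR adjusted p 0.06) and at a threshold of 0.01 (edgeR adjusted p 0.0144). Flower and seed markers (AG, AP3, PI, SEP3, CRA1 and OLEO1) summed to at most 0.573 CPM in ddcc and 0.992 CPM in WT. The root hair markers COBL9 and EXPA7 and the shoot meristem markers STM, WUS and CLV3 had at most 3 counts each in every library, and EXPA7, WUS and CLV3 had 0 in all. In bulk leaf RNA, fewer cells that express a gene and less RNA per cell cannot be told apart.

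**Figure D1:**
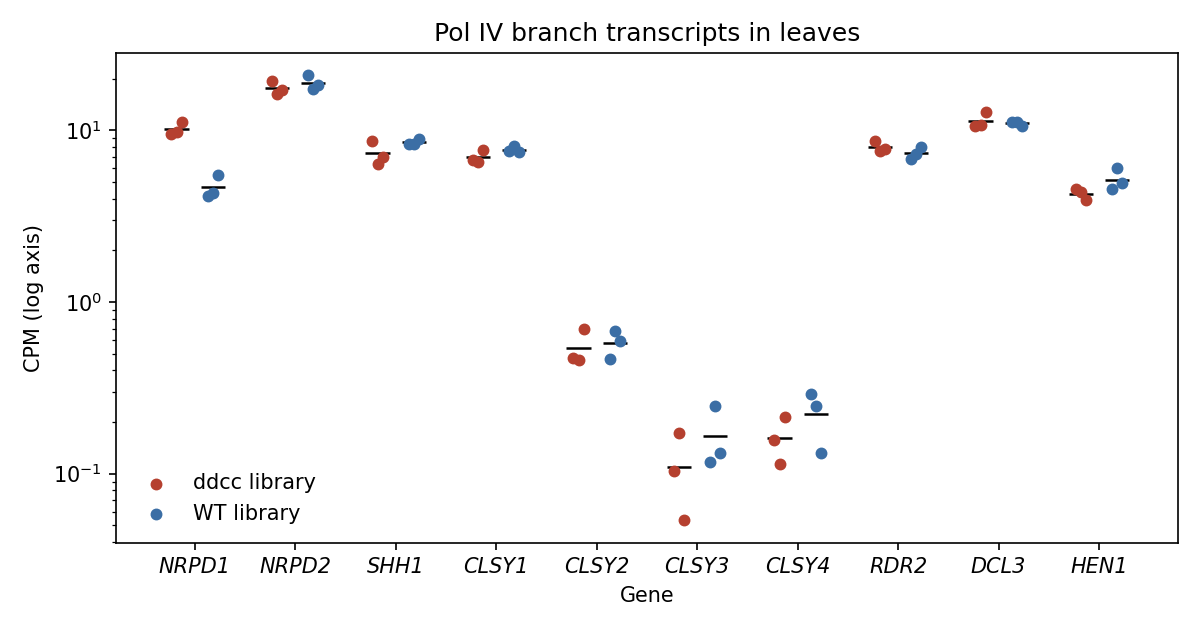
Level of each Pol IV branch gene in every library, in CPM on a log axis; red points are ddcc libraries, blue points WT libraries, and black lines group means (n = 3 each). NRPD1 is at 9.54 to 11.2 CPM in ddcc, above 4.14 to 5.52 CPM in WT, while CLSY3 and CLSY4 stay below 0.3 CPM in both.

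NRPD1 (AT1G63020, chromosome 1, 23354685 to 23362589, minus strand), the largest subunit of Pol IV, had 183, 170 and 210 counts in the ddcc libraries and 71, 70 and 84 in the WT libraries. Scaled for library size these were 9.54, 9.72 and 11.2 CPM in ddcc and 4.14, 4.31 and 5.52 CPM in WT. Every ddcc library lay above every WT library. The means were 10.2 ± 0.930 CPM in ddcc and 4.66 ± 0.750 CPM in WT (SD, n = 3 each). The fitted difference was 2.19-fold (95% interval 1.77 to 2.70, log2 fold change 1.13, SE 0.14, adjusted p 0.000174 by the quasi-likelihood test of edgeR with Benjamini-Hochberg adjustment). Over all 18498 tested features, 15.5% were called higher in ddcc and 12.7% lower at an adjusted p under 0.05. A share of 2.69% were called higher with a log2 fold change at least that of NRPD1. That cut is the value of NRPD1 itself, the highest of the tested members. Across all 18 alternative settings the log2 fold change of NRPD1 stayed between 1.05 and 1.26 and its adjusted p at or below 0.00175. Its replicate spread was close to counting error, with a coefficient of variation of 9.16% in ddcc and 16.1% in WT where counts alone would give 7.3% and 11.6%. The listed markers of dividing cells were CYCB1;1, CDKB1;1, CDKB2;1, CDKB2;2, KNOLLE and PCNA1. Of these, 0 of 6 were called higher and KNOLLE was called lower, beside 15.5% and 12.7% of all features. The 6 summed to 23.6 to 28.9 CPM in ddcc and 28.7 to 33.0 CPM in WT. CYCB1;1 and CDKB1;1 were scarce, with wide 95% intervals of log2 fold change, −1.07 to 0.25 and −0.46 to 0.69. The part of dividing cells in the NRPD1 difference was not tested.

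NRPD2 (AT3G23780, chromosome 3, 8567572 to 8574209, minus strand), the second-largest subunit, which Pol IV and Pol V share, did not pass the test. It had 19.5, 16.2 and 17.2 CPM in ddcc and 20.9, 17.4 and 18.4 CPM in WT, and the genotypes overlapped. The fold difference was 0.932 with a 95% interval of 0.805 to 1.08 (edgeR adjusted p 0.464), so an increase of the size of that of NRPD1 lies outside the interval. Its copy NRPD2B averaged 5.83 ± 1.16 CPM in ddcc and 7.36 ± 0.745 CPM in WT (SD, n = 3 each, edgeR adjusted p 0.139), and how reads that fit both copies were assigned is not recorded.

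The balance between polymerase subunits was then read within each library, as a ratio of counts per kb of exon. NRPD1 stood at 0.377, 0.463 and 0.503 of NRPD2 in ddcc and at 0.152, 0.191 and 0.231 of NRPD2 in WT, without overlap. Against NRPE1, the largest subunit of Pol V, NRPD1 stood at 1.7, 1.53 and 1.54 in ddcc and at 0.654, 0.726 and 0.823 in WT. NRPD1 transcripts per kb thus outnumbered those of NRPE1 in all 3 ddcc libraries and in 0 of 3 WT libraries. For both ratios the exact permutation p (two-sided) was 0.1, which is the smallest that 3 libraries against 3 allow. The mean NRPD2 to NRPE1 ratio was 3.63 ± 0.769 in ddcc and 3.89 ± 0.372 in WT (SD, n = 3 each, exact permutation p 0.6), with overlapping libraries.

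**Figure D2:**
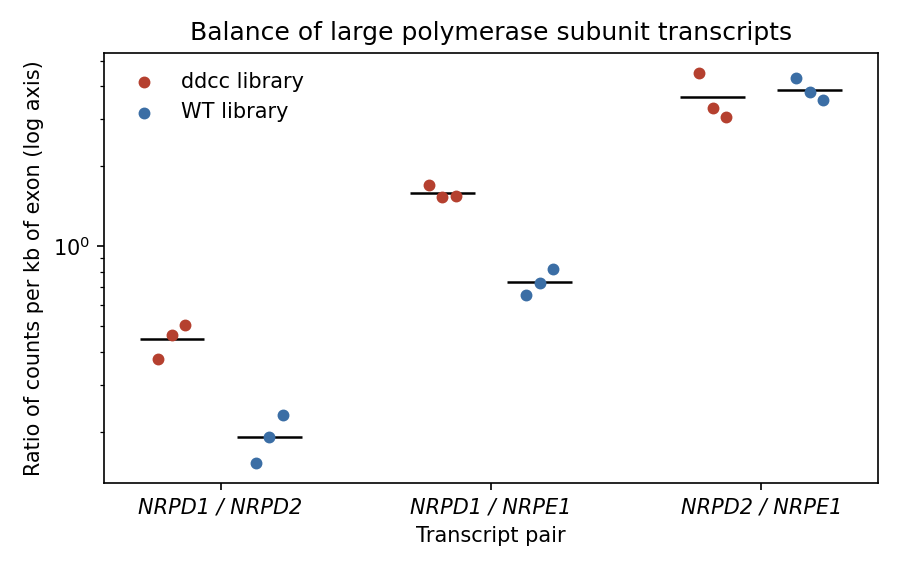
Ratio of counts per kb of exon between subunit transcripts in each library, on a log axis; red points are ddcc libraries, blue points WT libraries, and black lines group means (n = 3 each). Both ratios with NRPD1 on top are higher in every ddcc library, and the NRPD2 to NRPE1 ratio overlaps between genotypes.

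Among 24 further subunits of nuclear RNA polymerases, of which 23 were tested, 2 were called higher and 0 lower by edgeR, as with DESeq2, and 0 were lower at an unadjusted p under 0.05. Their median log2 fold change was −0.03, against −0.0034 over all tested features. Over all features edgeR called 15.5% higher and 12.7% lower, and 7311 of 18498 had an unadjusted p under 0.05 in either direction. The genes called higher were NRPB2, the second-largest subunit of RNA polymerase II, at 78.9 ± 3.63 CPM in ddcc and 65.2 ± 0.852 CPM in WT (log2 fold change 0.28, edgeR adjusted p 0.00359), and NRPB5, a subunit of several polymerases, at 32.6 ± 0.356 CPM in ddcc and 26.9 ± 0.807 CPM in WT (log2 fold change 0.27, edgeR adjusted p 0.00609; SD, n = 3 each). NRPE1 averaged 7.92 ± 1.03 CPM in ddcc and 7.81 ± 0.473 CPM in WT, a log2 fold change of 0.02 with a 95% interval of −0.25 to 0.29 (SD, n = 3 each, edgeR adjusted p 0.92). The largest subunits of polymerases II, I and III, NRPB1, NRPA1 and NRPC1, had log2 fold changes of −0.05, −0.08 and −0.09. Of the smaller subunits, NRPD4, shared by Pol IV and Pol V, had −0.12, and NRPD7, specific to Pol IV, had −0.05. None of these 6 genes passed the test, and the upper ends of their intervals, at most 0.41, lay below the lower end of that of NRPD1, 0.83.

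**Figure D3:**
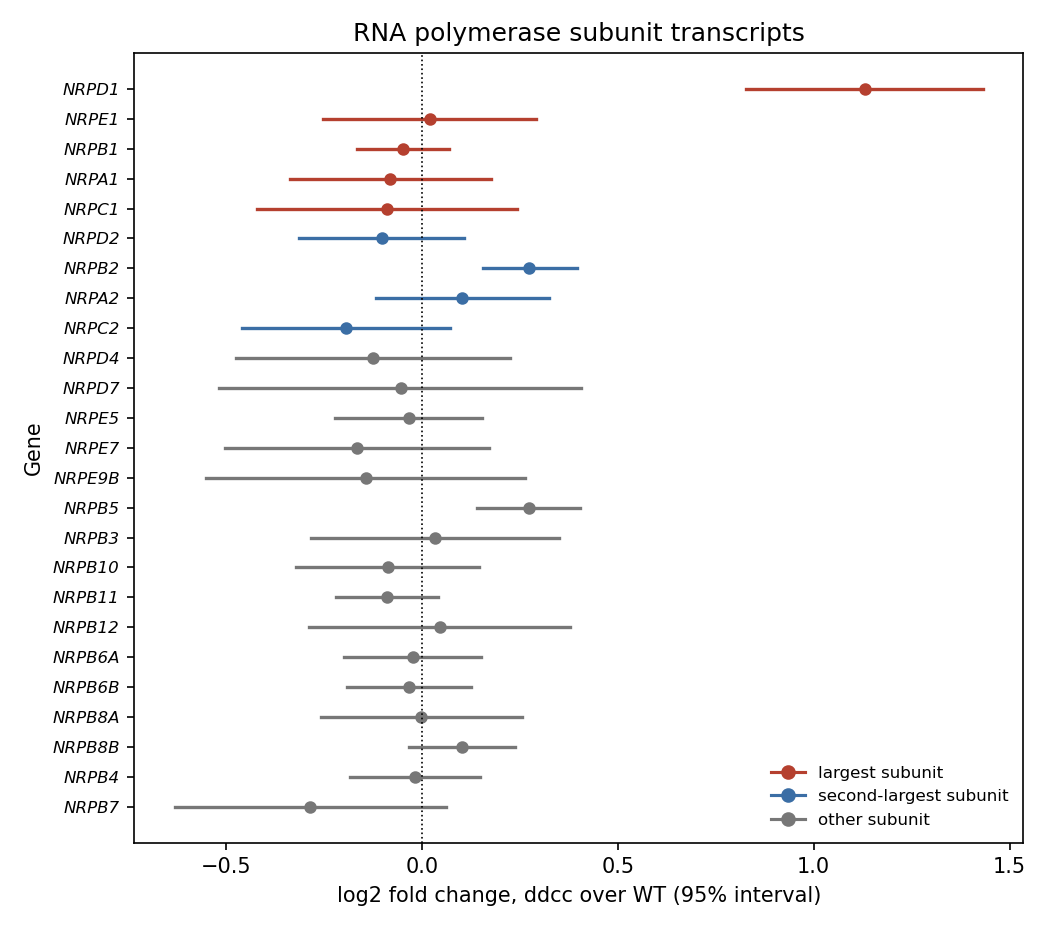
Log2 fold change, ddcc over WT, with its 95% interval for NRPD1, NRPD2 and the 23 other tested polymerase subunits (n = 3 libraries each); red marks largest subunits, blue second-largest, grey others. NRPD1, at 1.13, lies to the right of all the others, and NRPB2 and NRPB5 are the only others whose intervals lie above 0.

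SHH1, the factor that recruits Pol IV to chromatin carrying the repressive mark, had 8.7, 6.35 and 7.01 CPM in ddcc and 8.34, 8.32 and 8.87 CPM in WT. Replicate 1 of ddcc lay within the WT range and the other ddcc libraries below it. The fold difference was 0.866 (95% interval 0.71 to 1.06, edgeR adjusted p 0.264), with a coefficient of variation of 16.5% in ddcc and 3.66% in WT. SHH1 (AT1G15215, chromosome 1, 5238044 to 5240051, plus strand) had the highest level per length of the 10 genes, 6.09 CPM per kb in ddcc and 7.04 CPM per kb in WT. Its homologue SHH2 had a log2 fold change of 0.06 (edgeR adjusted p 0.631).

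The CLSY genes, which send Pol IV to different sets of sites, differed in level, from 1.69 CPM per kb for CLSY1 to 0.0232 CPM per kb for CLSY3 in ddcc and from 1.87 to 0.0348 CPM per kb in WT. CLSY1 (AT3G42670, chromosome 3, 14755798 to 14760629, minus strand) had 6.72, 6.58 and 7.65 CPM in ddcc and 7.58, 8.07 and 7.49 CPM in WT, a fold difference of 0.906 with a 95% interval of 0.763 to 1.07 (edgeR adjusted p 0.372). CLSY2 (AT5G20420, chromosome 5, 6898790 to 6904242, minus strand) was scarce, with 9, 8 and 13 counts in ddcc and 8, 11 and 9 in WT, and its fold difference of 0.94 had a wide 95% interval of 0.552 to 1.6. The genotypes overlapped for both genes, and neither passed the test. CLSY3 (AT1G05490, chromosome 1, 1618504 to 1623489, minus strand) was close to undetected, with 2, 3 and 1 counts in ddcc and 2, 4 and 2 in WT. CLSY4 (AT3G24340, chromosome 3, 8831935 to 8835829, minus strand) was equally scarce, with 3, 2 and 4 counts in ddcc and 5, 4 and 2 in WT. Both were too low for the expression filter, so 8 of the 10 genes were tested. Summed over libraries CLSY3 stood at 0.108 CPM in ddcc (exact Poisson 95% interval 0.0398 to 0.236) and 0.165 CPM in WT (0.0711 to 0.324), and CLSY4 at 0.163 CPM in ddcc (0.0743 to 0.309) and 0.226 CPM in WT (0.113 to 0.405), intervals that cover counting error only. A difference between genotypes was not detectable at this depth for either gene.

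Per kb of exon, CLSY1 made up 90.2%, 90.0% and 88.7% of the summed CLSY transcripts in ddcc and 89.5%, 87.5% and 89.9% in WT. CLSY2 made up 6.74% ± 1.01 in ddcc and 6.52% ± 0.977 in WT (SD, n = 3 each). CLSY4 made up 2.32% ± 0.52 in ddcc and 2.9% ± 1.06 in WT, and CLSY3 1.27% ± 0.755 in ddcc and 1.64% ± 0.608 in WT. All 4 shares overlapped between genotypes, with exact two-sided permutation p-values of 0.4 to 1 and 0.8 to 1 after Benjamini-Hochberg adjustment over the 4 tests. CLSY1 was the main CLSY transcript of these leaves in both genotypes.

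**Figure D4:**
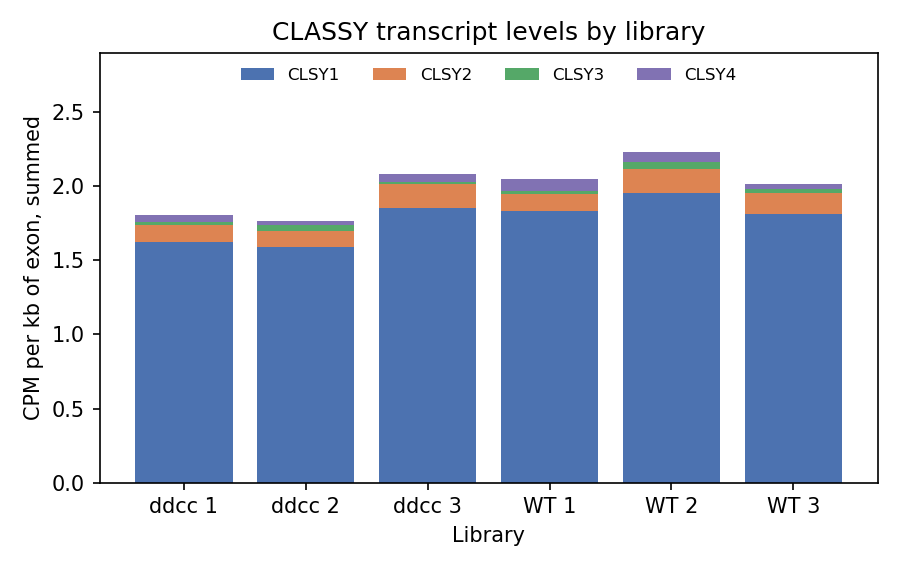
Stacked levels of CLSY1 to CLSY4 in each library, in CPM per kb of exon, with ddcc libraries on the left and WT libraries on the right. CLSY1 forms 88.7% to 90.2% of each ddcc bar and 87.5% to 89.9% of each WT bar.

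RDR2 (AT4G11130, chromosome 4, 6780449 to 6784632, plus strand), the polymerase that makes Pol IV transcripts double-stranded, had 8.7, 7.61 and 7.81 CPM in ddcc and 6.77, 7.27 and 8.02 CPM in WT. Its fold difference of 1.1 had a 95% interval of 0.92 to 1.31 (edgeR adjusted p 0.424). DCL3 (AT3G43920, chromosome 3, 15753387 to 15760859, plus strand), the Dicer-like enzyme that cuts the products of RDR2, had 10.6, 10.8 and 12.7 CPM in ddcc and 11.3, 11.2 and 10.6 CPM in WT, a fold difference of 1.03 (0.886 to 1.2, edgeR adjusted p 0.782). The genotypes overlapped for both. HEN1 (AT4G20910, chromosome 4, 11185936 to 11191123, minus strand), the small RNA methyltransferase, had 4.53, 4.35 and 3.91 CPM in ddcc and 4.55, 6.04 and 4.93 CPM in WT. Every ddcc library lay below every WT library for HEN1, but narrowly, with 4.53 CPM in ddcc replicate 1 and 4.55 CPM in WT replicate 1. The raw counts of these libraries, 87 of 18809306 and 78 of 17644256, stood in the opposite order, so the separation rests on the scaling. The fold difference of HEN1, 0.825, had an interval of 0.655 to 1.04 (edgeR adjusted p 0.197).

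**Figure D5:**
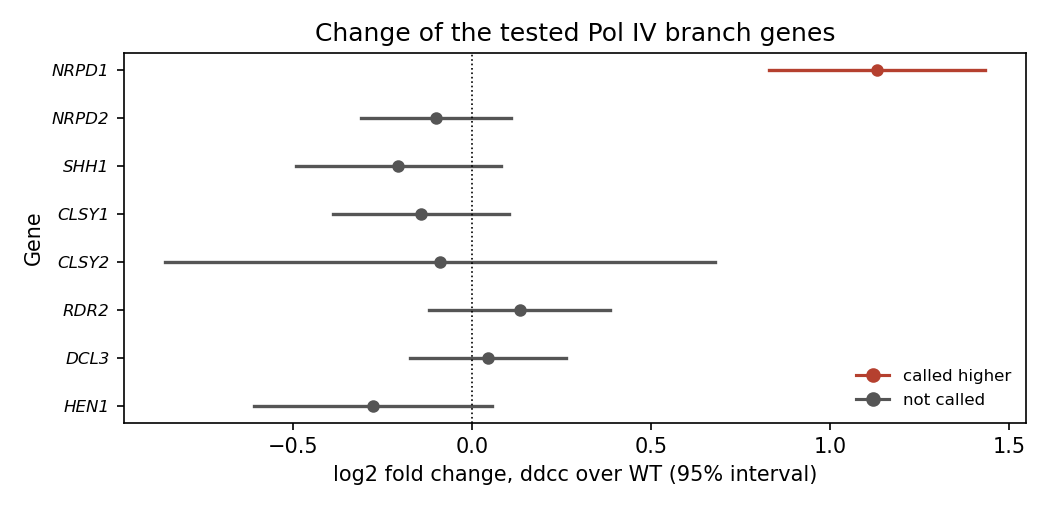
Log2 fold change, ddcc over WT, with its 95% interval for the 8 Pol IV branch genes that passed the expression filter (n = 3 libraries each). NRPD1 lies at 1.13 (0.83 to 1.43), and the intervals of the other 7 genes include 0.

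Over the branch as a whole, 1 of the 8 tested genes was called higher and 0 lower by edgeR, and the same counts were found with DESeq2 and at an unadjusted p under 0.05. Over all features edgeR called 15.5% higher and 12.7% lower, so 1 call among 8 genes is near the background share. DESeq2 called 12.95% of the features higher. At an unadjusted p under 0.05 the background was larger, with 7311 of 18498 features in both directions together. In scaled CPM, libraries of the genotypes did not overlap for 2 genes, NRPD1 above and HEN1 below, the latter narrowly. Of all features, 22.5% had every ddcc library above every WT library and 21% had every one below. The median log2 fold change of the 8 genes was −0.10. In WT the levels per kb ran in the order SHH1, NRPD2, DCL3, RDR2, CLSY1, HEN1, NRPD1, CLSY2, CLSY4 and CLSY3. DCL3 and RDR2, RDR2 and CLSY1, and CLSY4 and CLSY3 were neighbours whose WT libraries overlapped, and the other neighbours did not. NRPD1 was 7th in WT, at 0.866 CPM per kb, below all libraries of HEN1, and 5th in ddcc, at 1.89 CPM per kb, where its libraries (1.77 to 2.09) overlapped those of RDR2 (2.05 to 2.34) and CLSY1 (1.59 to 1.85).

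Paralogs of the branch genes serve mostly other small RNA pathways and Pol V. Of 9 such genes 1 was called higher and 0 lower by edgeR and by DESeq2, with 0 lower at an unadjusted p under 0.05 and a median log2 fold change of −0.01. The count of edgeR calls is near the background, since 15.5% of all features were called higher and 12.7% lower. An unadjusted p under 0.05 was more common, with 7311 of 18498 features in both directions together. The gene called higher was DCL4, the Dicer-like enzyme of trans-acting and antiviral small RNAs, at 30.9 ± 1.83 CPM in ddcc and 24.4 ± 1.71 CPM in WT (SD, n = 3 each, log2 fold change 0.34, edgeR adjusted p 0.00619). Whether DCL4 differed from DCL3 in its response was not tested. DCL1 and DCL2 had log2 fold changes of −0.15 and −0.05, and RDR1 and RDR6, the relatives of RDR2, had −0.01 and −0.02, none past the test.

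The genes of the Pol V branch, on which Pol IV products act, were counted from a list of 14, of which 13 were tested. FDM1, an RNA-binding partner of the pathway, was called higher at 28.1 ± 1.49 CPM in ddcc and 23.0 ± 0.614 CPM in WT (log2 fold change 0.29, edgeR adjusted p 0.0091). AGO4, the Argonaute that carries the small RNAs, was called lower at 22.1 ± 1.9 CPM in ddcc and 27.5 ± 1.69 CPM in WT (log2 fold change −0.31, edgeR adjusted p 0.016). IDN2, the relative of FDM1, was called lower at 18.9 ± 1.47 CPM in ddcc and 22.6 ± 0.861 CPM in WT (log2 fold change −0.25, edgeR adjusted p 0.0317; SD, n = 3 each). The call of AGO4 was lost without WT replicate 2 or 3 (edgeR adjusted p 0.0533 and 0.061), and that of IDN2 in 9 of 18 settings (the threshold of 0.01, which also ends that of AGO4, among them), with an adjusted p of up to 0.119 without ddcc replicate 3. The median log2 fold change of the 13 genes was −0.08. Counting each gene of the 3 lists once, 4 of 42 tested genes were higher and 2 lower in ddcc, beside 15.5% and 12.7% of all features.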

How the data were processed

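Polyadenylated RNA of leaves was sequenced from 3 ddcc and 3 WT libraries, grouped by their titles. The authors deposited raw counts, whole numbers per gene and transposable element, without normalization. Per the submitters' processing notes, Trim Galore 0.6.0, cutadapt 1.15, STAR 2.7.0f and the build TAIR10 were used. The counting program, strand use and treatment of multiply mapping reads are not given in the sources used here. Coordinates, exon lengths and printed sequences come from RefSeq TAIR10.1, whose annotation was matched by locus tag and was not compared with the build used for counting. A list of moss library batches was left out, since it names none of these samples.

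All features with enough counts (edgeR filterByExpr, minimum count 10) entered 1 fit with TMM scaling, and ddcc was compared with WT in R 4.3.3 with glmQLFTest of edgeR 4.0.16, p-values being Benjamini-Hochberg adjusted over 18498 features (18126 genes and 372 transposable elements). Features with an adjusted p under 0.05 were called. Standard errors are the log2 fold change over the square root of F. Intervals of fold changes are 95% on the total degrees of freedom of the fit, residual plus prior. The common biological coefficient of variation was 7.61%. CPM used TMM-scaled totals of tested features. Coding sequences were aligned with mafft 7.526. The fit was also run on simulated counts with the same spread for every feature. That is a simpler case than these data, so the run does not measure accuracy here. DESeq2 1.42.0, other scalings and filters, a GC and length offset, a replicate block and leaving out each library served as alternatives. The rule that picks the 10 genes uses no measured value, but the genes, lists and tests were chosen with earlier results of these data known. The text names all 10 genes, the mutated genes, the called genes of each list and listed paralogs.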

Additional observations from a re-analysis of the deposited data

How the results depend on the processing

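The Pol IV branch had 1 gene called higher and 0 called lower in all 18 alternatives, and the log2 fold changes of NRPD1, NRPD2, SHH1, CLSY1, RDR2 and HEN1 kept their sign and side of the threshold in each. Leaving out 1 library at a time gave 1.05 to 1.26 for NRPD1, the highest without WT replicate 3. Estimates that never passed the test changed sign: CLSY2 ranged from −0.310 to 0.041 and DCL3 from −0.047 to 0.094 without 1 library, and DCL3 was −0.006 with the GC and length offset. In percentage points, the difference in share ranged from −0.023 to 1.193 for CLSY1 and from −0.362 to 0.562 for CLSY2 without 1 library. The log2 differences of the NRPD1 to NRPD2 and NRPD1 to NRPE1 ratios stayed between 1.08 and 1.38 and between 1.04 and 1.21. The paralog list had 1 gene called lower with the GC and length offset. The Pol V branch list, with 2 called lower, had 1 with library totals and 1 with DESeq2, 0 at an adjusted p under 0.01, and 0 to 2 without 1 library; the cause was not tested. At an adjusted p under 0.01, 1795 features were higher and 1195 lower, a stricter threshold by construction, against 2873 and 2341.

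No effect shared by libraries of the same replicate number was seen. The deviations of same-numbered libraries correlated at −0.10, −0.08 and 0.03, and the highest correlation, 0.12, was between ddcc replicate 2 and WT replicate 1. Such correlations cannot show whether libraries were grown or prepared in pairs. With the replicate block 2743 features were higher and 2178 lower, NRPD1 kept a log2 fold change of 1.13 (edgeR adjusted p 0.000371), and the Pol V branch list had 1 gene called lower. Depth limits CLSY2, CLSY3 and CLSY4. With no filter beyond 1 count CLSY3 and CLSY4 had edgeR adjusted p-values of 0.679 and 0.696.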

Other observations

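Of the 4 protein-coding genes nearest to NRPD1, 3 were tested and 0 were called higher. AT1G63010, 1853 bases away on the side of its end, had 711, 678 and 658 counts in ddcc and 774, 648 and 584 in WT (log2 fold change −0.15, edgeR adjusted p 0.147), and AT1G63030, 4804 bases beyond its start, had 0 counts in every library. AT1G63000, the gene after AT1G63010, was called lower, with 344, 328 and 362 counts in ddcc and 484, 461 and 436 in WT (log2 fold change −0.61, edgeR adjusted p 7.34e-05). Of the 40 protein-coding genes that lie nearest to the 10 genes of the branch, 2 on each side, 24 were tested, 2 were called higher and 4 lower, beside 15.5% and 12.7% of all features. These neighbours were looked up after the values of NRPD1 were known.

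Among 12990 tested genes with a mean of at least 100 counts, TEM1, RLP36 and WRKY40 had the profiles most like that of NRPD1 over the 6 libraries. Their root mean square differences from it, on centred log2 CPM, were 0.09, 0.09 and 0.10, and their log2 fold changes were 0.992, 0.996 and 1.06. With 2 groups of 3 libraries such likeness rests mainly on the difference between the genotypes.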
